A study of Arabidopsis thaliana with 8 samples.

Results

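The GDSL esterase and lipase family of Arabidopsis thaliana was followed through the cold response of wild-type and sfr3 plants. The 60 members were given as a list of loci. That list was chosen with earlier results of these data known, so counts of members called are descriptive only. Of these, 52 had a probe set of their own on the array, 5 had only a probe set shared with another gene and 3 had no probe set paired with them in the annotation used. The 5 (AT1G28660, AT2G30220, AT2G30310, AT2G31540 and AT3G26430) and the 3 (AT1G20130, AT1G67830, known as FXG1, and AT3G04290, known as LTL1) are not described further, because a shared probe set cannot be assigned to 1 gene. The 52 probe sets belong to a table of 22810.

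GDSL enzymes are serine hydrolases named after the Gly-Asp-Ser-Leu motif that carries the catalytic serine near the start of the protein. The family is large in land plants, most members are secreted, and their known substrates include lipids, cutin precursors, acetylated cell wall polysaccharides and phenolic esters. The best understood members are the cutin synthases, which join hydroxy fatty acid monomers into cutin, the polyester of the plant cuticle, outside the epidermal cell. Other members are known from seed oil breakdown, pollen and defence.

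Transcript levels were measured on Affymetrix ATH1 arrays, 1 per sample, in 4 groups of 2 arrays: sfr3 in the cold, sfr3 kept warm, wild type in the cold and wild type kept warm. The wild type was Col-0, and sfr3 is a mutant line obtained by EMS (ethyl methanesulfonate) mutagenesis in that background, isolated for sensitivity to freezing; its lesion is in ACC1, the gene of the acetyl-CoA carboxylase of the cytosol. Seeds of both lines spent 48 h at 4 °C, and plants then grew for 38 days in an 8 h photoperiod (16 h dark) at 20 °C, in air of 70% humidity, to growth stage 1.14. How cold the cold treatment was, and how long it lasted, is not stated in the labels. For sfr3 the labels name the aerial parts and for wild type the entire rosette, so that what was collected and the genotype cannot be told apart. Nothing in the labels says that replicates came from separate plants, so the p-values reflect the spread among these arrays alone, and that spread may be technical.

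Signals are MAS5 intensities from the authors, with the same trimmed mean (100.0) on every array, and can be compared between arrays for 1 probe set but not between probe sets. The array of cold sfr3 replicate 1 stood apart. Its median signal was 52.5, against 36.6 to 39.0 on the other 7 arrays, and its background level, the 95th percentile of 27 bacterial controls with no added target, was 35.4, against 6.37 to 11.3. The median absolute log2 difference between the 2 replicates was 0.723 for cold sfr3, 0.299 for warm sfr3, 0.244 for cold wild type and 0.283 for warm wild type. For some of the members whose call changed or whose value moved by over 1.5 times without that array, the value without it is given. A member listed with no such value may still depend on that array. The 4 leaf markers paired with a probe set, of 8 listed, were above the background level on every array. Their summed signal was 18892 to 21427 in cold sfr3, 19994 to 21389 in warm sfr3, 16733 to 17372 in cold wild type and 19020 to 24888 in warm wild type. LHCB4.3 added only 76.6 to 223 to these sums. For cold in sfr3, LHCB4.2 was called lower in limma (log2 -0.91, adjusted p = 0.0384) and the other 3 were not called. Of 7 pollen markers 3 were paired, with sums of 239 to 286 in cold sfr3, 170.2 to 224 in warm sfr3, 143 to 192 in cold wild type and 183 to 192 in warm wild type, and of these ACT12 and MGH3 stayed at or below 7.70 and 11.1. The 1 paired root marker of 5, PYK10, had 112 and 40.0 in cold sfr3 and 202 and 199 in warm sfr3, and 28.8 and 31.8 in cold wild type and 196 and 132 in warm wild type, so it was lower in the cold in both genotypes; its part in the family's changes was not tested. No marker of the epidermis, flower or seed lists was paired with a probe set.

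Of the 28 members bright enough to be tested, 9 rose and 4 fell in sfr3, and 9 rose and 1 fell in wild type, and 6 rose in both genotypes: AT2G04570, AT3G05180, AT3G48460, AT4G28780, AT5G33370 and AT5G45950. AT1G33811 fell in both. A member was called when its adjusted p in limma, fitted over all 13648 probe sets tested, was below 0.05. By that rule the share called among all tested probe sets was 31.2% for cold in sfr3 (14.9% higher and 16.4% lower), while wild type had 26.3% (higher 13.0%, lower 13.3%). The corresponding shares of the tested members were 46.4% in sfr3 (32.1% higher and 14.3% lower) and 35.7% in wild type (32.1% higher and 3.57% lower). The fit gave a member the same SE in both genotypes, though replicates lay further apart in cold sfr3. With array weights, which give less weight to arrays that vary more, the order was reversed. Then 17 members (60.7%) were called in wild type and 9 (32.1%) in sfr3, against 48.4% and 16.4% of all probe sets. The median log2 change of the tested members was 0.54 in sfr3, against 0.06 for all tested probe sets, and 0.48 in wild type, against 0.00 for all. These counts describe only members that passed the filter on signal, of which 3 (AT1G28610, AT1G71691 and AT2G19050) passed only through their brightest group. With no filter on signal, 13 of 52 members (25.0%) were called in sfr3, against 17.6% of all probe sets, and 5 of 52 (9.62%) in wild type, against 14.3%, so that in wild type the members' share was then below that of all probe sets.

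Leaving out single arrays moved the wild-type count of 10 of 28. It was 3 (10.7%) without cold replicate 1, against 12.9% of all probe sets, 2 (7.14%) without cold replicate 2, against 11.0%, and 2 (7.14%) without warm replicate 1, against 12.1%, each below the share of all probe sets. It was 6 (21.4%) without warm replicate 2, against 14.0%, and 6 (21.4%) when either warm sfr3 array was left out, against 22.0%. When either cold sfr3 array was left out it was 15 (53.6%), against 45.5% and 45.4%. The sfr3 count was 15 (53.6%) without cold sfr3 replicate 1, against 38.3% of all probe sets, and included all of the 13. It was 18 (64.3%) without cold replicate 2, against 58.5%, 9 (32.1%) without warm replicate 1, against 14.9%, and 11 (39.3%) without warm replicate 2, against 16.0%. With each array centred on its median, 7 members were called higher and 6 lower in sfr3 (46.4%), against 24.7% of all probe sets, of which 30.9% were higher. In wild type that centring gave 8 higher and 1 lower (32.1%), against 19.2% of all, of which 50.9% were higher. RNA came from whole tissue, so fewer cells of a type and less RNA per cell cannot be told apart.

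**Figure D1:**
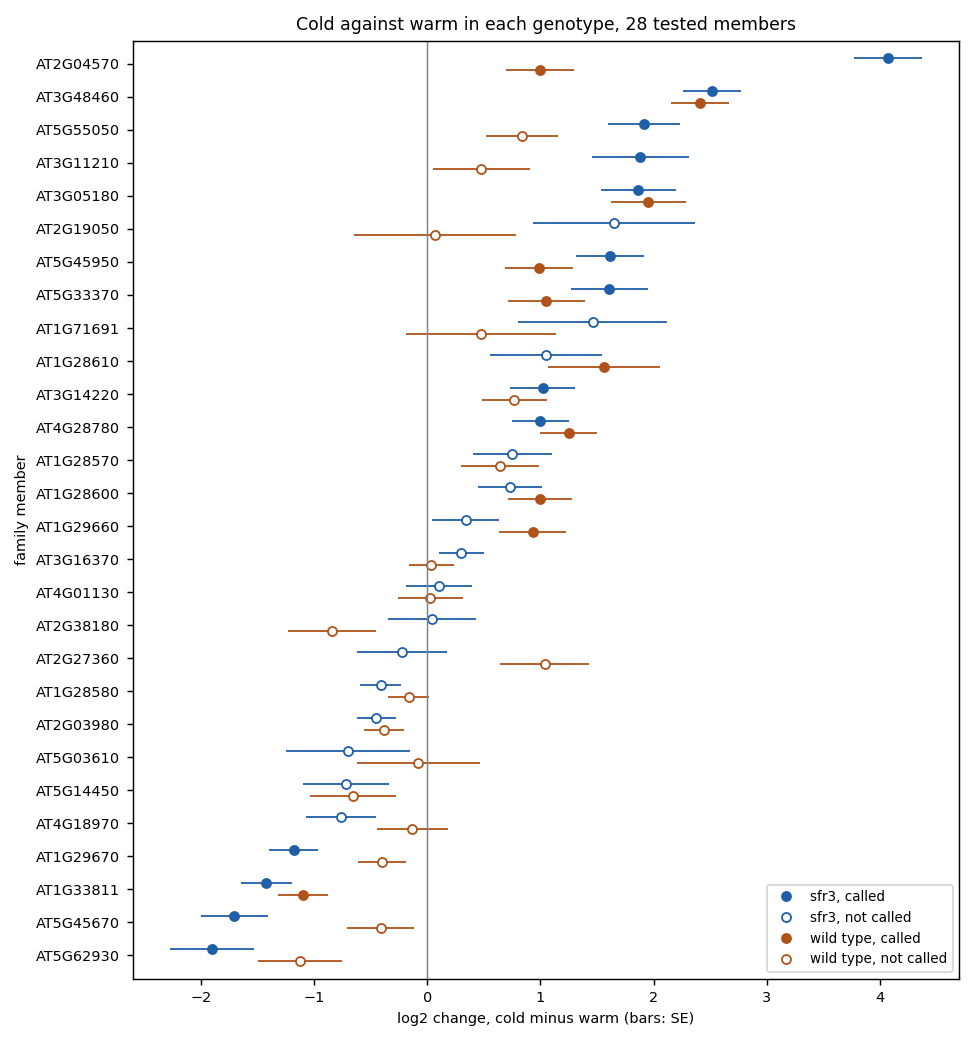
Log2 change between cold and warm in sfr3 (blue) and wild type (orange) for each of the 28 tested members, ordered by the change in sfr3, with bars of 1 SE and filled points for calls at an adjusted p below 0.05. AT2G04570 stands at 4.07 in sfr3 and 0.99 in wild type, while AT3G48460 has 2.52 and 2.41.

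Of the 28 tested members 26 had the same sign of the cold change in sfr3 and in wild type, and the log2 changes correlated at a Pearson r of 0.752 and a Spearman rho of 0.770 over these 28 genes, which share arrays and are not independent replicates. Over all 13648 probe sets 77.8% had the same sign in both genotypes, against 92.9% of the members, and r was 0.801 and rho 0.736. The other 2 were AT2G27360 (log2 -0.22 in sfr3 and 1.04 in wild type) and AT2G38180 (0.04 and -0.84), and neither was called in either genotype. The 6 rises shared by both genotypes were 66.7% of the rises in sfr3 and 66.7% of those in wild type; the 1 shared fall was 25.0% of the falls in sfr3 and the single fall in wild type. Over all probe sets the shared rises were 61.3% of those in sfr3 and 69.8% of those in wild type, and the shared falls 63.7% of those in sfr3 and 78.4% of those in wild type. Of the tested members, 12 were called in no comparison.

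The cutin synthase AT5G33370, known as CUS2 and needed to maintain the ridges of the sepal cuticle, was higher in the cold in both genotypes. Its signals were 88.3 and 81.0 in cold sfr3 and 19.6 and 34.8 in warm sfr3, and 79.6 and 82.5 in cold wild type and 32.6 and 44.1 in warm wild type. All 4 cold arrays stood above all 4 warm arrays. The log2 change was 1.61 in sfr3 (SE 0.34, adjusted p = 0.00738) and 1.05 in wild type (SE 0.34, adjusted p = 0.0483). The wild-type call was lost when any 1 of the 4 wild-type arrays was left out (adjusted p = 0.103 to 0.259), and with no filter (0.0898). The sfr3 call was lost without warm sfr3 replicate 1 (0.0615), with array weights (0.0556) and in a fit of only the sfr3 arrays (0.0627). The wild-type call was also lost with the replicate block (adjusted p = 0.0541). In the cold, sfr3 and wild type differed by a log2 value of 0.06, with a 95% interval of -0.71 to 0.83. The genotype difference in the size of the cold change was 0.56, with an interval of -0.53 to 1.64 (adjusted p = 0.753), which spans 0.

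AT3G48460, known as SFAR4, was among the most strongly raised members in both genotypes. The SFAR (seed fatty acid reducer) genes encode GDSL lipases that lower the fatty acid content of seeds when overexpressed. AT3G48460 had 194 and 265 in cold sfr3 and 34.1 and 41.9 in warm sfr3, and 178 and 171 in cold wild type and 27.7 and 34.8 in warm wild type. The groups did not overlap, and the log2 change was 2.52 in sfr3 (SE 0.26, adjusted p = 1.82e-04) and 2.41 in wild type (SE 0.26, adjusted p = 2.33e-04). Both calls held under each of the 15 other settings run, with log2 values of 2.17 to 2.74 in sfr3 and 2.02 to 2.57 in wild type. The 2 responses differed by 0.11, with an interval of -0.71 to 0.92.

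No call for cold was made for the other SFAR genes. AT4G18970, known as SFAR5, had 49.6 and 35.9 in cold sfr3 and 65.7 and 81.1 in warm sfr3, a log2 value of -0.76 that was not called (adjusted p = 0.0917). Without cold sfr3 replicate 1 that value was -0.98 and was called (adjusted p = 0.0205). In wild type AT4G18970 had 74.1 and 59.1 in the cold and 59.7 and 88.5 in the warm, with overlapping groups (log2 -0.13, adjusted p = 0.816). The other 3 SFAR genes were too dim to be tested. AT1G54790 (SFAR1) had 8.53 and 17.0 in cold sfr3, 6.36 and 9.23 in warm sfr3, 22.6 and 7.12 in cold wild type and 6.37 and 1.61 in warm wild type. AT1G58430 (SFAR2, also named RXF26) had 4.98 and 1.68 in cold sfr3, 0.499 and 1.26 in warm sfr3, 1.45 and 2.65 in cold wild type and 1.64 and 15.5 in warm wild type. AT2G42990 (SFAR3) had 53.1 and 2.96 in cold sfr3, 6.20 and 15.4 in warm sfr3, 25.8 and 13.6 in cold wild type and 18.5 and 7.87 in warm wild type. In each of these the replicates of at least 1 group lay on both sides of the background level.

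AT2G04570 was the only member called between the genotypes. Its signals were 572 and 491 in cold sfr3 and 25.6 and 33.9 in warm sfr3, against 66.7 and 77.1 in cold wild type and 26.5 and 46.0 in warm wild type. Both cold sfr3 arrays stood far above the other 6, and the cold wild-type arrays stood above all 4 warm arrays. The cold change was 4.07 in sfr3 (SE 0.30, adjusted p = 3.50e-05), about 16.8-fold, and 0.99 in wild type (SE 0.30, adjusted p = 0.0374), about 1.99-fold. In the cold, sfr3 exceeded wild type by 2.85 (95% interval 2.17 to 3.53, adjusted p = 0.00739), about 7.20-fold. It was 1 of only 17 probe sets called in that comparison among the 13648 tested (0.125%; 14 higher, 0.103%, and 3 lower, 0.022%), and the only 1 of the 28 tested members (3.57%).

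The difference in AT2G04570 was also present without the array that stood apart: sfr3 exceeded wild type in the cold by 2.74 without cold sfr3 replicate 1 (adjusted p = 0.00198) and by 2.96 without cold sfr3 replicate 2 (adjusted p = 5.83e-05). The call was lost without cold wild-type replicate 1 or 2 (adjusted p = 0.145 and 0.110), at log2 values of 2.75 and 2.95. The test of whether the cold response itself depended on the genotype gave 3.08 (SE 0.43, 95% interval 2.12 to 4.04), but its adjusted p in limma over all probe sets was 0.0667, above the threshold. That adjusted p was 0.0187 without cold sfr3 replicate 1, 5.38e-04 without cold sfr3 replicate 2, 0.0256 with a pseudocount of 16, and 0.0557 to 0.626 under the other 11 settings, while the log2 value stayed between 2.70 and 3.45 throughout. The wild-type call for cold was lost without cold wild-type replicate 1 or 2 or warm wild-type replicate 1 (adjusted p = 0.121, 0.218 and 0.258) and when either warm sfr3 array was left out (0.0529 and 0.0542). It was lost with no filter too (0.0592), and the wild-type log2 value was 0.62 without warm wild-type replicate 1. In the warm the genotypes differed by -0.23 (interval -0.91 to 0.45, adjusted p = 1.00).

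**Figure D2:**
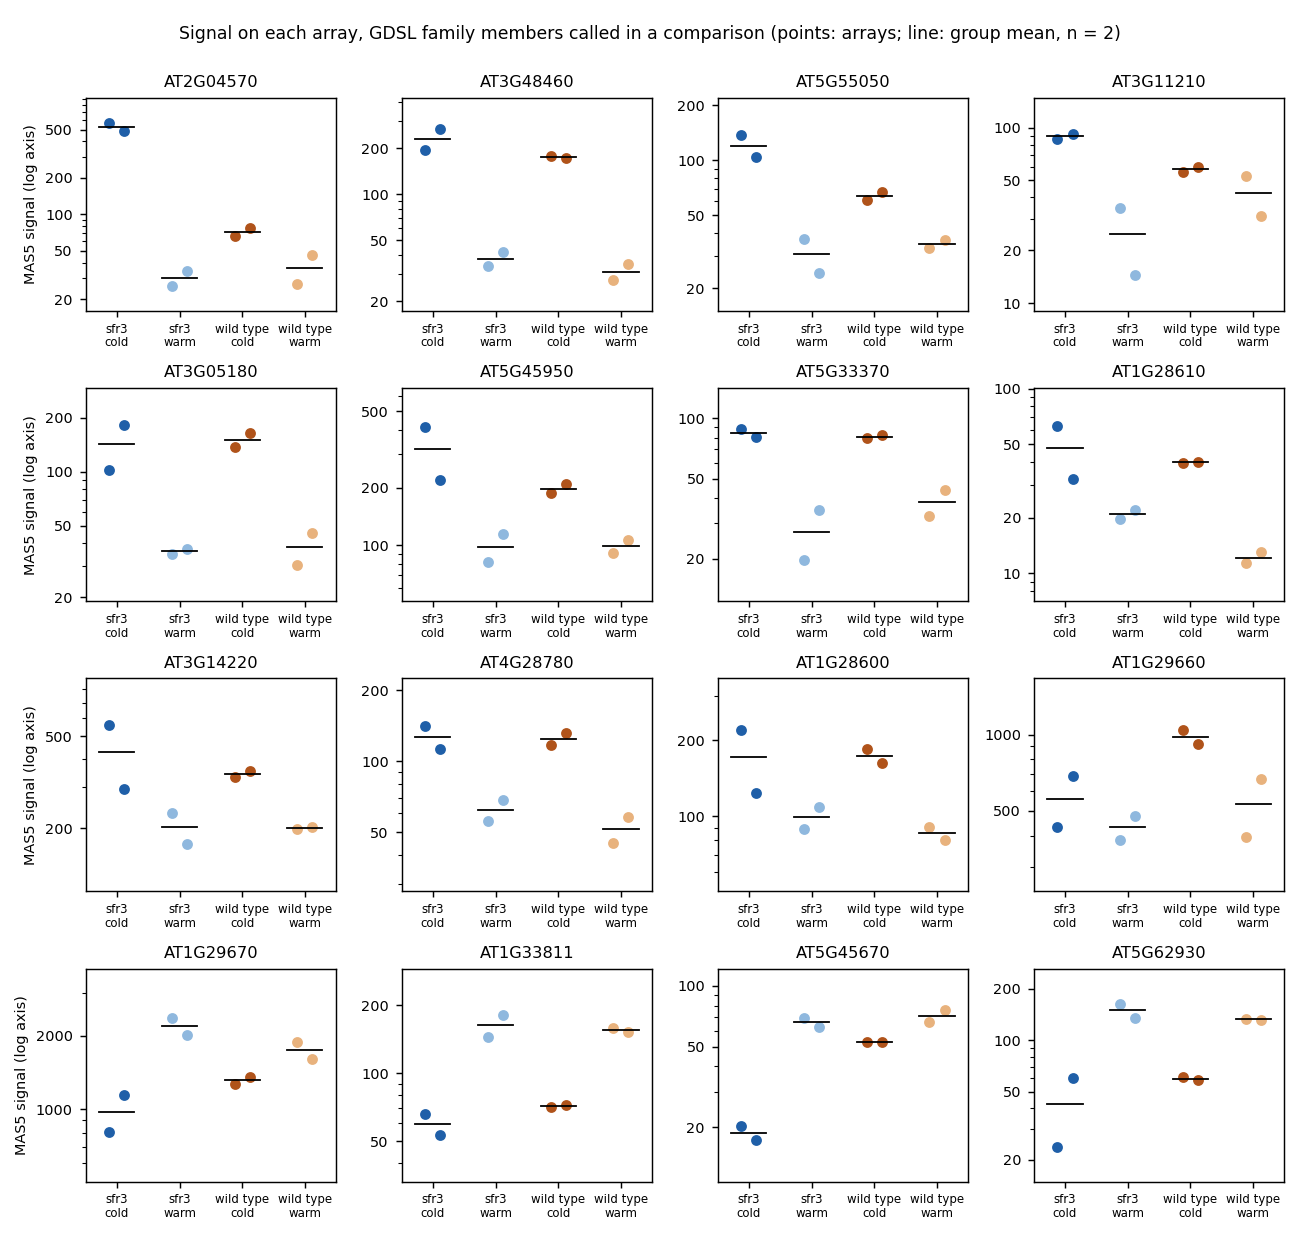
MAS5 signal (log axis) on each of the 8 arrays for the 16 members called in at least 1 comparison, with the groups in the order cold sfr3, warm sfr3, cold wild type and warm wild type; points are arrays and lines are the group means of 2. In the panel of AT2G04570 the cold sfr3 arrays lie at 572 and 491, against 66.7 and 77.1 in cold wild type, while for AT3G05180 the cold points of both genotypes overlap.

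The other rises called in both genotypes were those of 3 members for which no role is given here. AT3G05180 had 102 and 183 in cold sfr3 and 34.8 and 37.1 in warm sfr3, and 137 and 165 in cold wild type and 30.4 and 45.5 in warm wild type. Every cold array was above every warm array, with log2 changes of 1.87 in sfr3 (adjusted p = 0.00324) and 1.95 in wild type (adjusted p = 0.00258). AT5G45950 had 413 and 221 in cold sfr3 and 82.0 and 115 in warm sfr3, and 188 and 208 in cold wild type and 90.9 and 107 in warm wild type. It rose by 1.61 in sfr3 (adjusted p = 0.00429) and 0.99 in wild type (adjusted p = 0.0396), and its lower cold sfr3 array was still above all 4 warm arrays. AT4G28780 had 141 and 113 in cold sfr3 and 55.9 and 68.4 in warm sfr3, and 117 and 132 in cold wild type and 44.8 and 58.0 in warm wild type. The groups were separate, and the log2 change was 1.00 in sfr3 (adjusted p = 0.0165) and 1.25 in wild type (adjusted p = 0.00634). The calls of AT3G05180 held under all 15 other settings in both genotypes. With the replicate block the wild-type call of AT5G45950 was lost (adjusted p = 0.0526). The wild-type call of AT5G45950 was lost when any 1 of the 4 wild-type arrays was left out (adjusted p = 0.115 to 0.210) with no filter (0.0515), with quantile normalization (0.061) and when either warm sfr3 array was left out (0.0547 and 0.0555). That of AT4G28780 was lost without cold wild-type replicate 2 (0.0773) or warm wild-type replicate 1 (0.0651), and its sfr3 call without warm sfr3 replicate 1 (0.113), with median centring (0.0541), with array weights (0.108) and in a fit of only the sfr3 arrays (0.0846).

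In the fit of all 8 arrays AT5G55050, AT3G11210 and AT3G14220 rose in sfr3 and did not pass the test in wild type. AT5G55050 had 137 and 104 in cold sfr3 and 37.2 and 24.1 in warm sfr3 (log2 1.92, adjusted p = 0.00219), and 61.0 and 66.7 in cold wild type and 33.1 and 36.5 in warm wild type (log2 0.84, adjusted p = 0.0817). AT3G11210 had 86.5 and 92.2 in cold sfr3 and 34.8 and 14.5 in warm sfr3 (log2 1.88, adjusted p = 0.0104), and a mean of 57.9 ± 3.00 (SD, n = 2) in cold wild type and 53.1 and 31.5 in warm wild type (log2 0.48, adjusted p = 0.477). AT3G14220 had 557 and 295 in cold sfr3 and 232 and 170.3 in warm sfr3 (log2 1.02, adjusted p = 0.0261), and 333 and 354 in cold wild type and 199 and 202 in warm wild type (log2 0.77, adjusted p = 0.0801). In all 3 the cold arrays were above the warm arrays in each genotype. The interaction test called none of them, with log2 differences of 1.08, 1.41 and 0.25 and adjusted p values of 0.733, 0.733 and 0.861. In wild type the rises of AT5G55050 and AT3G14220 were called in 4 other settings: without cold sfr3 replicate 1 (adjusted p = 0.0202 for AT5G55050 and 0.00251 for AT3G14220), without cold sfr3 replicate 2 (0.0192 and 0.00242), with array weights (0.00718 and 8.67e-04) and in a fit of only the wild-type arrays (0.0118 and 6.21e-04). The sfr3 call of AT3G11210 did not hold without warm sfr3 replicate 2 (adjusted p = 0.0721), with array weights (0.0674) or in a fit of only the sfr3 arrays (0.0577). For AT3G14220, whose log2 value was 0.56 without cold sfr3 replicate 1, the call was lost without warm sfr3 replicate 1 or 2 (0.057 and 0.165) or any 1 of the 4 wild-type arrays (0.0508 to 0.0514), with median centring (0.0631), with array weights (0.0534) and in the fit of only the sfr3 arrays (0.104).

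Part of the family lies in runs of adjacent genes, and their values are given next to each other. In the annotation used, AT1G28570 to AT1G28610 are 5 consecutive protein-coding genes, followed at a short distance by the 3 genes AT1G28640 to AT1G28660. Of these 8 members 7 had a probe set of their own and 4 were tested. AT1G28600 had 220.0 and 123 in cold sfr3 and 89.0 and 108 in warm sfr3, and 184 and 162 in cold wild type and 90.1 and 80.4 in warm wild type. It rose in wild type (log2 1.00, adjusted p = 0.0285) and had 0.73 in sfr3 (adjusted p = 0.0772). AT1G28610 had 62.8 and 32.5 in cold sfr3 and 19.6 and 21.9 in warm sfr3, and 39.7 and 40.2 in cold wild type and 11.3 and 13.0 in warm wild type. It rose in wild type (log2 1.56, adjusted p = 0.0443) and had 1.05 in sfr3 (adjusted p = 0.133). In both genes the 2 cold sfr3 arrays were far apart, and the cold groups overlapped between genotypes. AT1G28570 and AT1G28580 were not called: their log2 values were 0.75 and -0.41 in sfr3 and 0.65 and -0.16 in wild type. With the replicate block the wild-type call of AT1G28610 was lost (adjusted p = 0.0677). The wild-type calls were lost when any 1 of the 4 wild-type arrays was left out for AT1G28600 (adjusted p = 0.109 to 0.172) and AT1G28610 (0.134 to 0.229), and for AT1G28610, which passed the signal filter only through its brightest group, also with no filter (0.0694), with a pseudocount of 16 (0.0528) and when either warm sfr3 array was left out (0.076 and 0.0772). The sfr3 values depended on the cold array used: without cold sfr3 replicate 1 they were 0.32 for AT1G28600 and 0.60 for AT1G28610 (adjusted p = 0.279 and 0.317), and without cold sfr3 replicate 2 both were called, at 1.15 and 1.504 (adjusted p = 7.56e-04 and 0.0114).

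AT1G29660 and AT1G29670 are adjacent and had cold changes of opposite sign in wild type; AT1G29660 is described because of that, after its values were seen. AT1G29660 had 432 and 688 in cold sfr3 and 386 and 479 in warm sfr3, and 1042 and 922 in cold wild type and 393 and 668 in warm wild type. It rose in wild type (log2 0.93, adjusted p = 0.0447), while the sfr3 groups overlapped (log2 0.34, adjusted p = 0.393). The sfr3 value was 0.68 without cold sfr3 replicate 1 (adjusted p = 0.061) and 0.00688 without cold sfr3 replicate 2 (0.984). AT1G29670 had 809 and 1140.1 in cold sfr3 and 2351 and 2018 in warm sfr3, and 1272 and 1359 in cold wild type and 1885 and 1598 in warm wild type. It fell in sfr3 by 1.18 on the log2 scale (adjusted p = 0.00375), a call that held under all 15 other settings, and had -0.40 in wild type (adjusted p = 0.217). In wild type it was called lower with quantile normalization (-0.61, adjusted p = 0.0342), array weights (0.0317) and a fit of only the wild-type arrays (0.036). The call of AT1G29660 was lost without cold wild-type replicate 1 or 2 or warm wild-type replicate 1 (adjusted p = 0.215, 0.147 and 0.318), and its log2 value was 0.55 without the last of these. It was also lost with no filter (0.0579), median centring (0.116) and quantile normalization (0.0661), and when either warm sfr3 array was left out (0.072 and 0.0721). Whether the 2 neighbours differed from each other was not tested, since their probe sets are not comparable in level.

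Falls in the cold were called for 4 members. AT1G33811 fell in both genotypes: it had 65.9 and 53.1 in cold sfr3 and 145 and 182 in warm sfr3, and 70.6 and 72.1 in cold wild type and 158 and 152 in warm wild type. All cold arrays were below all warm arrays, with log2 changes of -1.42 in sfr3 (SE 0.22, adjusted p = 0.0018) and -1.10 in wild type (SE 0.22, adjusted p = 0.00676). AT5G62930 had 23.8 and 60.4 in cold sfr3 and 163 and 134 in warm sfr3 (log2 -1.90, adjusted p = 0.00516), and 60.6 and 58.6 in cold wild type and 133 and 132 in warm wild type. Its wild-type arrays were also separate, but the log2 value of -1.13 just missed the threshold (adjusted p = 0.0521). AT5G45670 had 20.3 and 17.3 in cold sfr3 and 69.0 and 63.0 in warm sfr3 (log2 -1.71, adjusted p = 0.00298), and 52.6 and 52.8 in cold wild type and 66.0 and 76.1 in warm wild type (log2 -0.41, adjusted p = 0.367). On cold sfr3 replicate 1 the signals of AT5G62930 and AT5G45670 were below the background level of 35.4. Without that array their log2 values were -1.27 and -1.81, both called, and the call of AT5G62930 did not hold without warm sfr3 replicate 1 (adjusted p = 0.0548). The wild-type call of AT1G33811 was lost without cold wild-type replicate 1 or 2 or warm wild-type replicate 1 (adjusted p = 0.0583, 0.0589 and 0.0617). The sfr3 call of AT5G45670 was lost in a fit of only the sfr3 arrays (0.071). AT5G62930 was called in wild type with a pseudocount of 16 (0.0324), array weights (1.84e-04) and a fit of only the wild-type arrays (2.42e-04), and without cold sfr3 replicate 1 or 2 (2.64e-04 and 3.31e-04).

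Between the genotypes, no member was called in the warm: limma called 0 of the 28 tested members and 0 of all 13648 probe sets (0.0%), and at an unadjusted p below 0.05 it found 0 members and 102 probe sets (0.747%). The log2 differences between warm sfr3 and warm wild type lay between -0.80, for AT3G11210, and 0.68, for AT1G28610, with a median of 0.02. In the cold the differences lay between -1.39 and 2.85 with a median of 0.00, and apart from AT2G04570 none was called. For the interaction 0 of the 28 members were called, against 5 of all probe sets (0.0366%; 4 higher, 0.0293%, and 1 lower, 0.00733%), and 5 members (17.9%) and 803 probe sets (5.88%) had an unadjusted p below 0.05. Besides AT2G04570, AT5G55050 and AT3G11210, these were AT5G45670, with a log2 difference between the cold responses of -1.29 (interval -2.24 to -0.34), and AT1G29670, with -0.78 (-1.47 to -0.09). Without cold sfr3 replicate 1 the interaction was called for 1 member, AT2G04570, and 16 probe sets (0.117%), and without cold sfr3 replicate 2 for 11 members (39.3%) and 3802 probe sets (27.9%). The genotype comparison in the cold and the interaction use the same cold arrays as the comparisons of cold with warm.

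At an unadjusted p below 0.05, 6 of the 28 members (21.4%) differed between the genotypes in the cold, against 1775 of all probe sets (13.0%). Besides AT2G04570 these were 5 members that were not called; they are named after their values were seen. AT5G45670 was lower in both cold sfr3 arrays, at 20.3 and 17.3, than in cold wild type, at 52.6 and 52.8 (log2 -1.39, adjusted p = 0.275). AT2G27360 had 24.8 and 38.4 in cold sfr3 and 79.2 and 70.0 in cold wild type (log2 -1.21, adjusted p = 0.340), and on cold sfr3 replicate 1 it was below the background level. AT1G29660 had a log2 difference of -0.84 and AT5G55050 of 0.88 (adjusted p = 0.351 and 0.361); without cold sfr3 replicate 1 that of AT1G29660 was -0.51 and without replicate 2 -1.18, where it was called (adjusted p = 0.00454). For AT2G19050 the difference of 1.84 (adjusted p = 0.371) rested on cold sfr3 replicate 1, at 125, while replicate 2 was at 29.1 and cold wild type at 16.7 and 14.3; without replicate 1 it was 0.83 and not called. For AT5G45670 the log2 difference was -1.497 without cold sfr3 replicate 1 and -1.29 without replicate 2. The latter value rests on the signal of 20.3 on cold sfr3 replicate 1, which was below the background level of that array. Without cold sfr3 replicate 2, which leaves the array that stood apart as the only cold sfr3 sample, 13 of 28 members (46.4%) and 5372 probe sets (39.4%) were called between the genotypes in the cold.

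**Figure D3:**
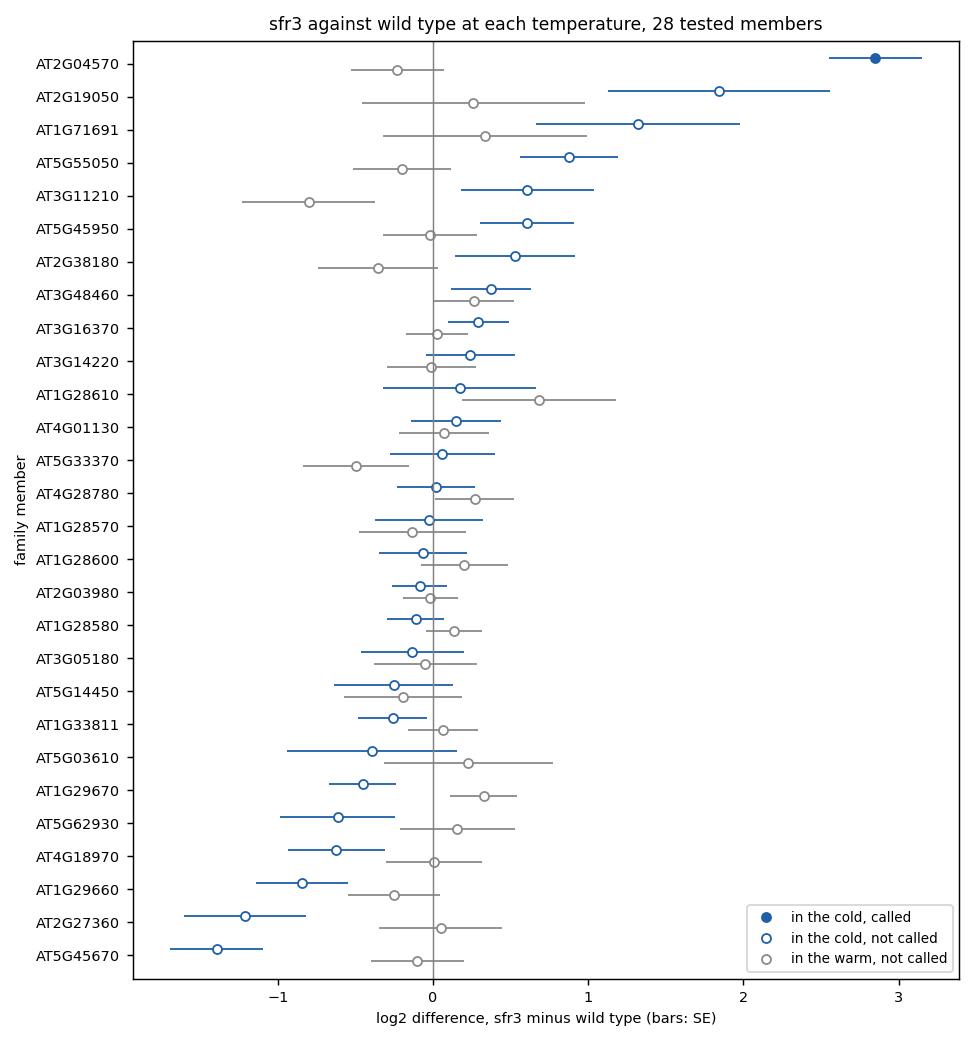
Log2 difference between sfr3 and wild type in the cold (blue) and in the warm (grey) for the 28 tested members, ordered by the difference in the cold, with bars of 1 SE; only the filled point is called. AT2G04570 lies at 2.85 in the cold and -0.23 in the warm, and AT5G45670 at -1.39 and -0.10.

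Several of the tested members had no called change. AT3G16370 had 2278 and 1993 in cold sfr3 and 1695 and 1763 in warm sfr3, and 1773 and 1709 in cold wild type and 1486 and 1941 in warm wild type, with 95% intervals of the cold change of -0.14 to 0.75 in sfr3 and -0.41 to 0.48 in wild type. AT4G01130 had 73.5 and 63.4 in cold sfr3 and 56.1 and 71.4 in warm sfr3, and 55.5 and 67.8 in cold wild type and 50.6 and 71.5 in warm wild type, with intervals of -0.55 to 0.76 in sfr3 and -0.63 to 0.68 in wild type. AT2G03980 was lower on every cold array, at 180.4 and 159 in cold sfr3 and 223 and 241 in warm sfr3, and at 179.6 and 179.8 in cold wild type and 233 and 236 in warm wild type, but its log2 values of -0.45 in sfr3 and -0.38 in wild type did not pass (adjusted p = 0.0805 and 0.150). AT5G03610 and AT1G71691 had cold sfr3 replicates far apart, at 15.1 and 60.6 for AT5G03610 and at 155 and 34.3 for AT1G71691, and neither was called. AT5G14450 had log2 values of -0.72 in sfr3 and -0.66 in wild type.

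The remaining 24 members with a probe set of their own were too dim to be tested. Their signals ranged from 0.409 to 33.9 on the 7 arrays other than cold sfr3 replicate 1, where the highest was 89.2. Between 7 and 17 of them were above the background level on each of those 7 arrays, and 5 were on cold sfr3 replicate 1. Of these 24 members, 1 was above the background level on all 8 arrays and 1, AT5G41890, was below it on all 8. With no filter, none of the 24 was called in any comparison, and the smallest adjusted p was 0.0780, for AT1G56670 in wild type, where the signals were 29.0 and 33.9 in the cold and 11.2 and 3.52 in the warm, against 12.3 and 15.8 in cold sfr3 and 11.4 and 10.3 in warm sfr3. The brightest untested member was AT2G19010, with a mean signal of 26.0 over the 8 arrays, and the dimmest tested member was AT1G28610, with 30.1.

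**Figure D4:**
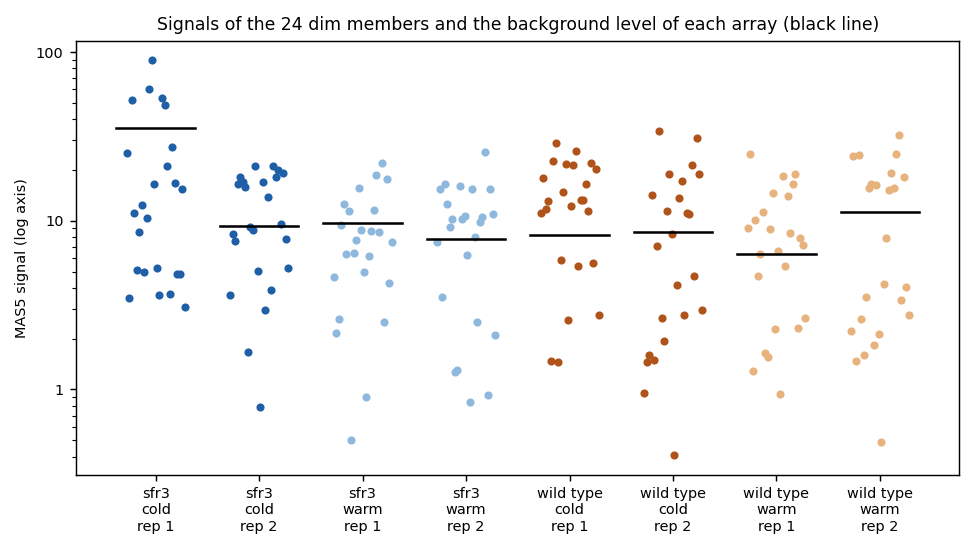
MAS5 signals (log axis) of the 24 untested members on each array, with the background level of the array as a black line. On cold sfr3 replicate 1, where this level is 35.4, 5 of the 24 members lie above it, against 17 of 24 on cold wild-type replicate 1.

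Other GDSL genes and genes of cuticle formation could be followed only in part. Of 15 further characterised GDSL genes 4 had a probe set of their own and 1 was tested: AT1G75900, the extracellular lipase gene EXL3 of the pollen coat gene cluster, rose in both genotypes. It had 431 and 729 in cold sfr3 and 121 and 191 in warm sfr3 (log2 1.87, adjusted p = 0.00174), and 605 and 515 in cold wild type and 161 and 138 in warm wild type (log2 1.89, adjusted p = 0.0016). Of 10 regulators of cuticle formation 1 was measured, SHN3, a transcription factor that activates cutin genes. Its signals were 32.0 and 41.4 in cold sfr3 and 5.66 and 2.54 in warm sfr3, where neither array was above background, and 56.2 and 63.4 in cold wild type and 8.31 and 18.6 in warm wild type. In sfr3 the log2 change of SHN3 in limma was 2.67 (adjusted p = 0.0142). Its mean log2 signal in the cold, set against the background level of the warm arrays, gave 4.21-fold. That fold is no lower bound, because on cold sfr3 replicate 1 the signal of SHN3 was itself below the background level. In wild type SHN3 rose by a log2 value of 2.07 (adjusted p = 0.043). SHN3 passed the signal filter only through its brightest group, cold wild type, so it was tested because it was high there. None of the 21 listed genes of cutin synthesis and export was paired with a probe set of its own in the annotation used, so the cutin synthase could not be set beside the enzymes that make its substrate.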

How the data were processed

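The authors deposited MAS5 signal intensities on a linear scale for 22810 probe sets on 8 arrays; MAS5 and GCOS are named, per the submitters' processing notes, with no version or background setting stated. After 64 control probe sets were left out, log2(signal + 2.17) was taken, the pseudocount being the 10th percentile of all values, so that changes of dim genes are understated. Probe sets in the upper 60% by mean signal (at least 26.7; 13648 probe sets) were fitted in limma 3.58.1 under R 4.3.3, with a mean per group, empirical Bayes moderation and an intensity trend, and with 4 residual and 5.17 prior degrees of freedom. P-values were two-sided and adjusted by Benjamini-Hochberg over all probe sets tested, and each adjusted p in the text is from limma unless another setting is named. The number of arrays limits the precision, and intervals are from the same model.

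Probe sets were named through the platform annotation and a gene table of TAIR10.1, used for names and neighbours only; of 22746, 13513 had 1 gene there, 503 had several genes and 8730 had none. A group was not above background when both its arrays were under the 95th percentile of the dark controls. Values per array are given for members called with separate groups, up to 8 rises and 8 falls per comparison, and for the cutin synthase and SFAR genes; other genes were named as the text says, and from each other list up to 4 called genes. The members and lists were chosen with earlier results of these data known. The computation was tested on simulated data. The alternatives were another pseudocount, no filter, median centring, quantile normalization, a replicate block, array weights, a fit of 2 groups and leaving out each array.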

Additional observations from a re-analysis of the deposited data

How the results depend on the processing

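Of 24 calls of single named members, 9 held under all of the alternatives run and 15 were lost under at least 1, and none turned its direction. The number of members called for cold in wild type was 10 of 28, against 5 of 52 (9.62%) with no filter, where 14.3% of all probe sets were called. It was 17 (60.7%) with array weights, against 48.4% of all, and 17 in a fit of only the 2 groups, against 48.0%. For cold in sfr3 it was 13, against 9 (32.1%) with array weights, where 16.4% of all were called. A fit of only the 2 groups gave 8 (28.6%) in sfr3, against 13.7%. In both settings wild type had more members called than sfr3. Leaving out single arrays also moved the number of members called, as given above. For sfr3 against wild type in the cold it was 1, and 0 to 13 without single arrays. For the interaction it was 0, against 1 with a pseudocount of 16 and 0 to 11 without single arrays. Median centring moved the median of all probe sets for cold in sfr3 to -0.19, against 0.06, and there 7 members were called higher and 6 lower, 11 of them among the 13; for the cold genotype difference and the interaction it moved the median to -0.26 and -0.31. Quantile normalization gave 7 higher and 2 lower in wild type (32.1%), against 24.2% of all probe sets. Values near 0 that changed sign, none of them called, were those of AT4G18970 for cold in wild type (-0.41 to 0.14 without single arrays) and between genotypes in the warm (-0.27 to 0.28), of AT5G33370 between genotypes in the cold (-0.19 with median centring, -0.0827 with quantile normalization and -0.000817 to 0.12 without single arrays), of AT2G04570 between genotypes in the warm (-0.60 to 0.15 without single arrays), and of the interaction of AT3G48460 (-0.21 with median centring and -0.12 to 0.33 without single arrays). The causes were not tested.

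The deviations of same-numbered replicates had 6 correlations between groups, which lay between -0.0867 and 0.0525. Low correlations of this kind cannot show whether such arrays were grown or processed together, and that was not tested. With the replicate block, 7 members (25%) were called for cold in wild type, against 24.9% of all probe sets. For cold in sfr3 it gave 13 (46.4%), against 29.5%. Between the genotypes that setting called 1 member in the cold and 0 in the warm, and for the interaction 0. Where an array was left out, the lone array of its group was assumed to vary like the other groups. Dim members close to the background level are limited by signal.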
